A study of Mus musculus with 6 samples.

Results

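Cadherins are single-pass membrane proteins that hold neighbouring cells together in a calcium-dependent way, and the 34 genes described here are cadherins and nonclustered protocadherins of the mouse. They were chosen by name, as every protein-coding gene of GENCODE vM21, the annotation of the mouse genome build GRCm38 (mm10), whose symbol is Cdh or Pcdh followed only by digits. This gave 34 of 21755 protein-coding gene entries on chromosomes 1 to 19 and X. Clustered protocadherins, desmosomal cadherins and other relatives with longer symbols were not members. H3K4me1, the monomethylated form of lysine 4 on histone H3, was mapped over these genes by CUT&Tag in wild-type whisker pads of the mouse strain B6/J2 at embryonic day 12, when whisker follicles begin to form. Pads were dissected and digested to single cells, so each library mixes the skin mesenchyme, the surface epithelium and the nerves, vessels and muscle of the pad. Of 6 samples, 3 were made with an H3K4me1 antibody, called replicates 1, 2 and 3 after their pad number, and 3 with control IgG, which were not analysed here. The values below therefore have no IgG background beside them. Replicates 2 and 3 carry whisker pad in their titles but adult kidney as their source name, and grouping followed the titles.

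H3K4me1 marks enhancers, both those in use and those not yet in use, and it also flanks active promoters, where a more heavily methylated form usually takes the place of the mark at the start site itself. Classical cadherins of type I (Cdh1, Cdh2, Cdh3, Cdh4, Cdh15) give strong adhesion and are coupled to actin by catenins, while those of type II sort cells more finely. Nonclustered protocadherins, of which the delta group is the largest, adhere weakly and act mainly in signalling and in the wiring of the nervous system. In embryonic skin the epithelium carries E-cadherin (Cdh1) and P-cadherin (Cdh3), whereas craniofacial mesenchyme carries N-cadherin (Cdh2) and OB-cadherin (Cdh11). From such textbook roles the members were put in tissue classes, with 4 called mesenchymal (Cdh2, Cdh6, Cdh11, Pcdh18), 6 epithelial (Cdh1, Cdh3, Cdh16, Cdh17, Cdh26, Pcdh1), 17 neural and 7 other. The other class held the endothelial Cdh5 and Pcdh12, the muscle Cdh15, the hair-cell tip-link genes Cdh23 and Pcdh15, and Cdh13 and Cdh24. The classes are of known expression, which was not measured here, and several members are used by more than 1 tissue. They were also drawn with earlier results of these data known, so differences between them are not an independent test.

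The lists held 16788, 12969 and 13998 peaks in replicates 1, 2 and 3, with total signals of 822360552, 985881531 and 744342185 pileup units. They hold the top 1% of signal blocks of each library, so an empty gene may still carry a weak mark. The study names the same nominal sequencing depth for every library, and since the lists carry no read numbers the depth reached could not be measured from them. Signals were not scaled to depth, and a peak is therefore given by its percentile of total signal within its own list. In a mixed tissue, fewer cells carrying the mark and less of the mark per cell cannot be told apart. Marker lists were read in the same way. Of 10 facial mesenchyme markers 10, 9 and 10 had a peak in replicates 1, 2 and 3, of 10 surface epithelium markers 7, 7 and 3, of 10 neuron markers 2, 3 and 1, of 6 glia markers 2, 2 and 0, of 6 endothelial markers 3, 2 and 2, of 6 muscle markers 4, 4 and 4, and of 10 adult kidney tubule markers 2, 2 and 1. Among the 200 genes nearest in length to each marker, in the same order, 22.2, 22.8, 31.8, 16.8, 38.6, 19.1 and 22.2% had a peak on average. The endothelial and kidney lists, with means of 38.9 and 16.7%, were near that share. In the muscle list Myf5 and Myf6 were counted separately, though they appear to share their strongest peak. Cdh16, known as kidney cadherin, had 0 peaks in each replicate, those with the kidney label included, but 73.0% of genes near its length had none in any. In the kidney list Slc12a1 had a peak in all 3 replicates, Aqp2 in replicates 1 and 2, and 8 of the 10 had none. Replicate 3 stood apart from the others in base composition. Genome-wide, the regions called in replicate 3 alone had a median GC content of 41.5%, against 52.4% for those called in replicates 1 and 2 but not 3. Results that rest on replicate 3 are given with and without it.

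The first question was how many cadherin genes carried the mark, counted as a peak overlapping the gene body or the 5 kb on either side by at least 1 bp. A peak was present over 20 members in replicate 1, 19 in replicate 2 and 14 in replicate 3. These are 58.8, 55.9 and 41.2% of the 34, a mean of 52.0 ± 9.5% (SD, n = 3), where 24.9, 22.6 and 19.6% of all protein-coding genes had a peak. Cadherin genes are long, with a median of 114.7 kb against 17.4 kb for all genes, and long genes hold more peaks. Each member was therefore set beside the 200 protein-coding genes nearest to it in length, of which 42.7, 38.8 and 41.6% had a peak. The members exceeded these by a mean of 10.9 ± 9.88 percentage points (SD, n = 3), with replicate 3 near 0 (two-sided exact sign-flip permutation p = 0.50, smallest possible 0.25). Of the 200 genes nearest in both length and GC content, a comparison added after the values were seen, 33.9% had a peak on average (exact permutation p = 0.25 for the difference). A peak in at least 1 replicate was found for 21 members, where the background was 28.8%. A peak in all 3 replicates was found for 13 members, in 1 or 2 of them for 8 and in none for 13. The background for a peak in all 3 was 15.5%, and 32.6% among genes near in length, while 71.2% of all genes and 50.4% of those near in length had none in any. Without replicate 3, 19 members had a peak in both remaining lists.

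**Figure D1:**
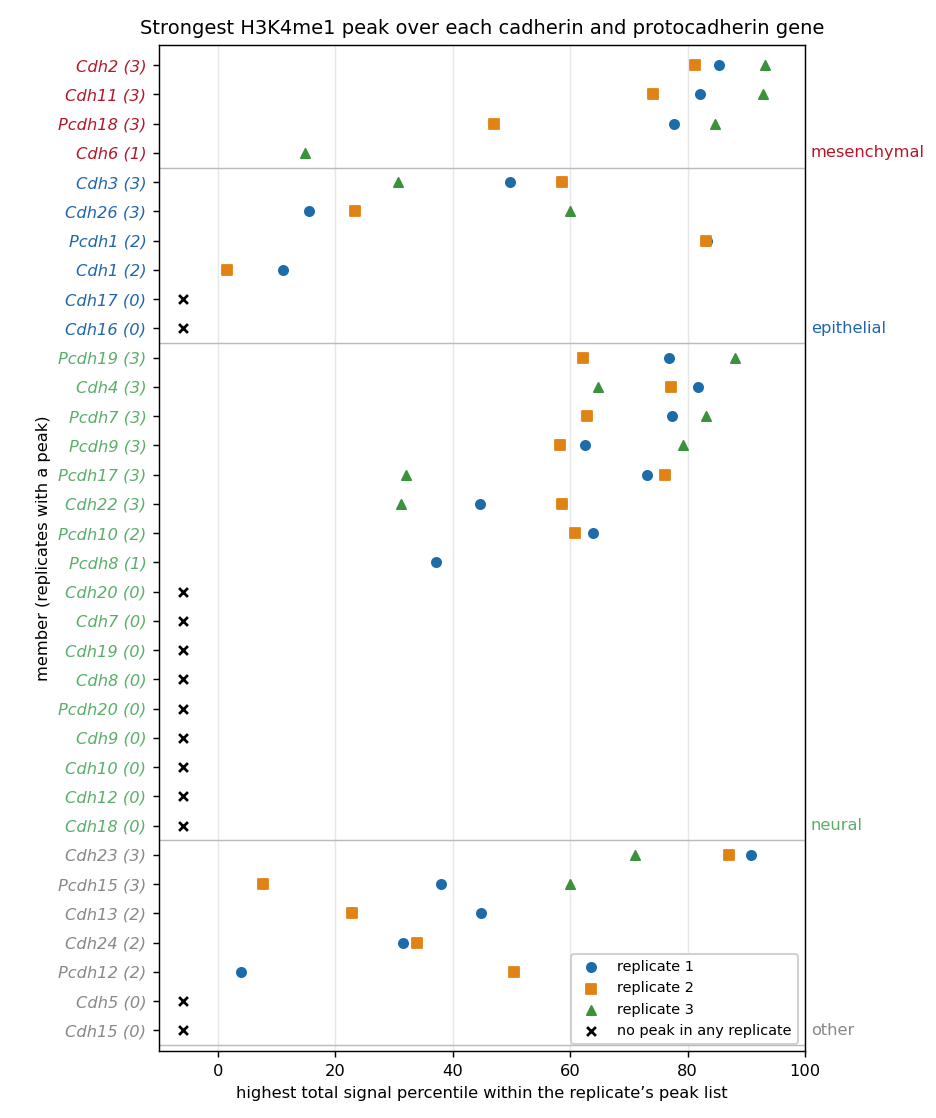
Highest total signal percentile of any peak over each of the 34 members (x axis, percent of the replicate's own list), with 1 row per member and the number of replicates with a peak in brackets. Circles, squares and triangles are replicates 1, 2 and 3 and crosses are members with no peak in any replicate. Cdh2 and Cdh11 lie between 74.1 and 93.2 in every replicate, while 9 of 17 neural members have no peak, where 43.0% of genes near in length have none.

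The covered share of the bases was then measured, pooled over genes, so that the longest genes weigh most. Peaks covered 1.59 ± 0.22% of the bases of the members' windows (SD, n = 3), against 3.69 ± 0.34% for all protein-coding genes, whose lengths differ from those of the members. By class the covered share was 7.06 ± 2.12% for mesenchymal, 4.72 ± 2.48% for epithelial, 1.33 ± 0.30% for neural and 0.72 ± 0.25% for other members. In replicates 1, 2 and 3 it was 5.54, 6.16 and 9.47% for mesenchymal and 5.92, 6.38 and 1.87% for epithelial members. The mesenchymal share was thus above the epithelial one in replicate 3 alone. By protein structure the covered share was highest for delta-2 protocadherins, at 8.27 ± 1.52%, and type I cadherins, at 6.0 ± 0.81%, and 0.79 ± 0.11% for type II cadherins. Where a member had a peak, its strongest was of ordinary rank. The median of the highest percentile was 63.2, 58.7 and 67.9 over the members with a peak in replicates 1, 2 and 3, and 61.8, 62.7 and 60.6 over all genes with a peak. Mesenchymal members stood higher, at 82.1, 74.1 and 88.8, and epithelial members lower, at 32.6, 41.0 and 45.3. Neural members stood at 68.5, 62.2 and 72.1, and the other class at 38.0, 34.0 and 65.5. These medians rest on few genes, 3, 3 and 4 for the mesenchymal and 4, 4 and 2 for the epithelial class.

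Of the 4 mesenchymal members 3, 3 and 4 had a peak in replicates 1, 2 and 3, which is 83.3 ± 14.4% on average (SD, n = 3), where 46.3 ± 2.1% of genes near in length did. Neural members had one in 8, 7 and 6 of 17 cases, a mean of 41.2 ± 5.9%, where 47.9% of genes near in length did, but 26.6% of those near in both length and GC content, so that the direction depends on the comparison genes. The difference between these classes was 27.9, 33.8 and 64.7 percentage points, a mean of 42.2 ± 19.7 (SD, n = 3). It was positive in 3 of 3 replicates (two-sided exact sign-flip permutation p = 0.25, the smallest this design allows), and 30.9 without replicate 3. With the share of genes near in length taken off each class it was 43.7 ± 22.0 points, and with genes near in both length and GC content 38.5. The gap to epithelial members was less steady. These had a peak in 4, 4 and 2 of 6 cases, a mean of 55.6 ± 19.2%, where 23.1% of genes near in length did. Among genes near in both length and GC content 35.9% did. Epithelial members thus also stood above their comparison genes on average. The mesenchymal share was higher than the epithelial one by 8.3, 8.3 and 66.7 points, a mean of 27.8 ± 33.7 (exact permutation p = 0.25, 3 of 3 positive). Without replicate 3 this difference was 8.33 points. After taking off the genes near in length, which are longer for the mesenchymal class, it was -14.5, -14.1 and 42.4 points, a mean of 4.6 ± 32.8 (exact permutation p = 1.00). With genes near in both length and GC content taken off it was 33.4 points (exact permutation p = 0.25). Surface epithelium markers with a peak were also fewest in replicate 3, at 7, 7 and 3 of 10, and the part of base composition in this was not tested. Members of the other class had a peak in 5, 5 and 2 of 7 cases, a mean of 57.1 ± 24.7%. Of their comparison genes 36.8% had one when matched in length and 52.2% when matched in length and GC content.

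**Figure D2:**
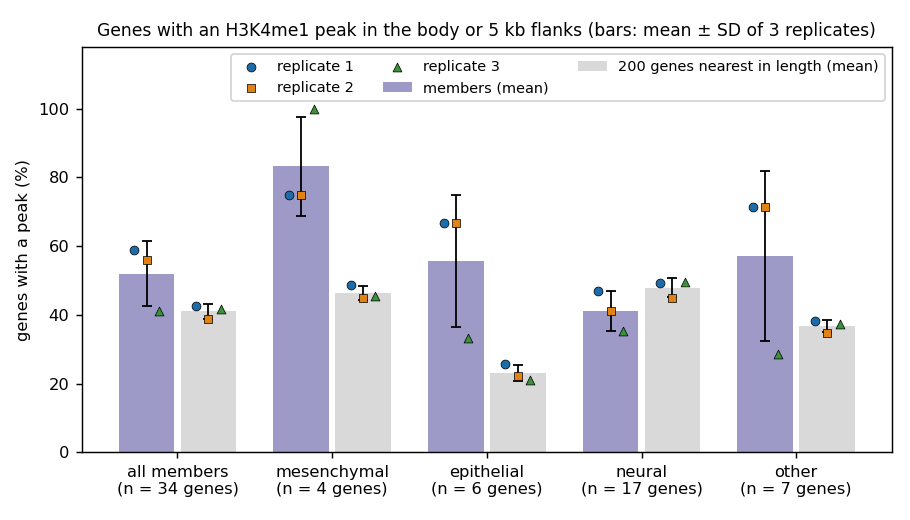
Percent of genes with a peak in the gene body or 5 kb flanks (y axis), for all members and each tissue class beside the 200 genes nearest in length to each member. Bars are means and whiskers the SD of 3 replicates, and symbols are the replicates. Mesenchymal members stand at 83.3% against 46.3% for genes near in length, epithelial members at 55.6% against 23.1% and the other class at 57.1% against 36.8%. Neural members stand at 41.2% against 47.9%, a direction that turns when GC content is matched too (26.6%).

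Cdh2, which encodes N-cadherin, had the highest mean percentile of the 13 members with a peak in all 3 replicates. It lies on chromosome 18 from 16588877 to 16809246 on the minus strand and carried 5, 5 and 6 peaks in replicates 1, 2 and 3, where genes near its length of 220.4 kb carried a mean of 2.98. Its strongest peak by total signal stood at percentile 85.4, 81.3 and 93.2, a mean of 86.6 ± 6.0 (SD, n = 3), with a maximum pileup of 66, 80 and 82. All 3 replicates placed that peak in the same region, 137.5 kb into the gene, where the annotation starts a shorter protein-coding transcript of Cdh2. Regions in all 3 replicates also lay in introns at 116.3, 126.5 and 214.7 kb. A region centred 1.9 kb after the 5′ start of the long transcript was called in replicates 1 and 2, at percentiles 51.7 and 30.4 by total signal. It was narrow, at 1.78 kb, and its maximum pileup of 159 and 141 was higher than that of the strongest region by total signal. Intronic regions at 68.9 and 206.2 kb were called in replicate 3 alone, at percentiles 0.7 and 4.3, close to the floor of the list.

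Cdh11, which encodes OB-cadherin of mesenchyme and osteoblasts, came next. It lies on chromosome 8 from 102632095 to 102785642 on the minus strand, and its highest percentile was 82.1, 74.1 and 92.9, a mean of 83.1 ± 9.4. The signal lay in a wide intronic region of 13.2 kb, chr8:102768414-102781612, centred 10.6 kb after the start. At its start site a second region was called in replicates 1 and 2, at percentiles 24.7 and 23.9, and not in replicate 3, which had weak intronic regions at 63.0 and 95.3 kb instead.

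The remaining mesenchymal members differed in how much of the gene was covered. Pcdh18, a delta-2 protocadherin of little more than 14 kb, had a single region that covered 28.3 to 34.3% of its window. The region ended 1.6 kb short of the 5′ start, and the peaks of replicates 1 and 3 came within 1 kb of the start of an annotated transcript. Its percentile was 77.7, 47.0 and 84.6, a mean of 69.8, with replicate 2 well below the others. Of genes near its length 20.3% had a peak. Cdh6, called K-cadherin, had 1 weak peak at its start in replicate 3, at percentile 14.8, and 0 peaks in replicates 1 and 2, where the nearest lay 113.0 and 273.9 kb away. Cdh6 alone thus accounts for the step from 3 to 4 mesenchymal members.

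A window of 200 bases in the wide region of Cdh11 is printed because that region carries the strongest signal of the gene. It is centred on the maximum of replicate 1, the middle one of the 3 by position, and the maxima of replicates 2 and 3 lie outside it. It is from the plus strand of GRCm38, chr8:102778001-102778200, in an intron 7.5 kb after the start. Capitals mark the letters CAGGTG, an E-box core bound by Snail and Zeb proteins, and GCCNNNGGC, the core read by AP-2 factors. The maxima of the replicates lay up to 1993 bp apart, and 56.0% of these bases are repeat-masked.
Cdh11 intron, chr8:102778001-102778200: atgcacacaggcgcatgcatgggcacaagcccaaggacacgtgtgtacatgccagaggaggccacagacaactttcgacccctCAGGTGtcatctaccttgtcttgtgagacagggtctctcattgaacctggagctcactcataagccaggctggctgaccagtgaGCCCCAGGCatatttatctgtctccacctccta

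The stretch has a GC content of 54.5%, against 40.8% for the whole region. Motifs were searched on both strands in 200 bases at the maximum of each region in all 3 replicates. CAGGTG was found in 2 of 21 such regions over members and in 12.7% of 8916 genome-wide, and GCCNNNGGC in 3 of 21 and 8.83%. CTTTGA, the core of TCF and LEF sites, was in 0 of 21 and 11.8%, and TAATTA, a homeodomain core, in 1 of 21 and 2.46%. A match is a run of letters and not a shown binding site.

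**Figure D3:**
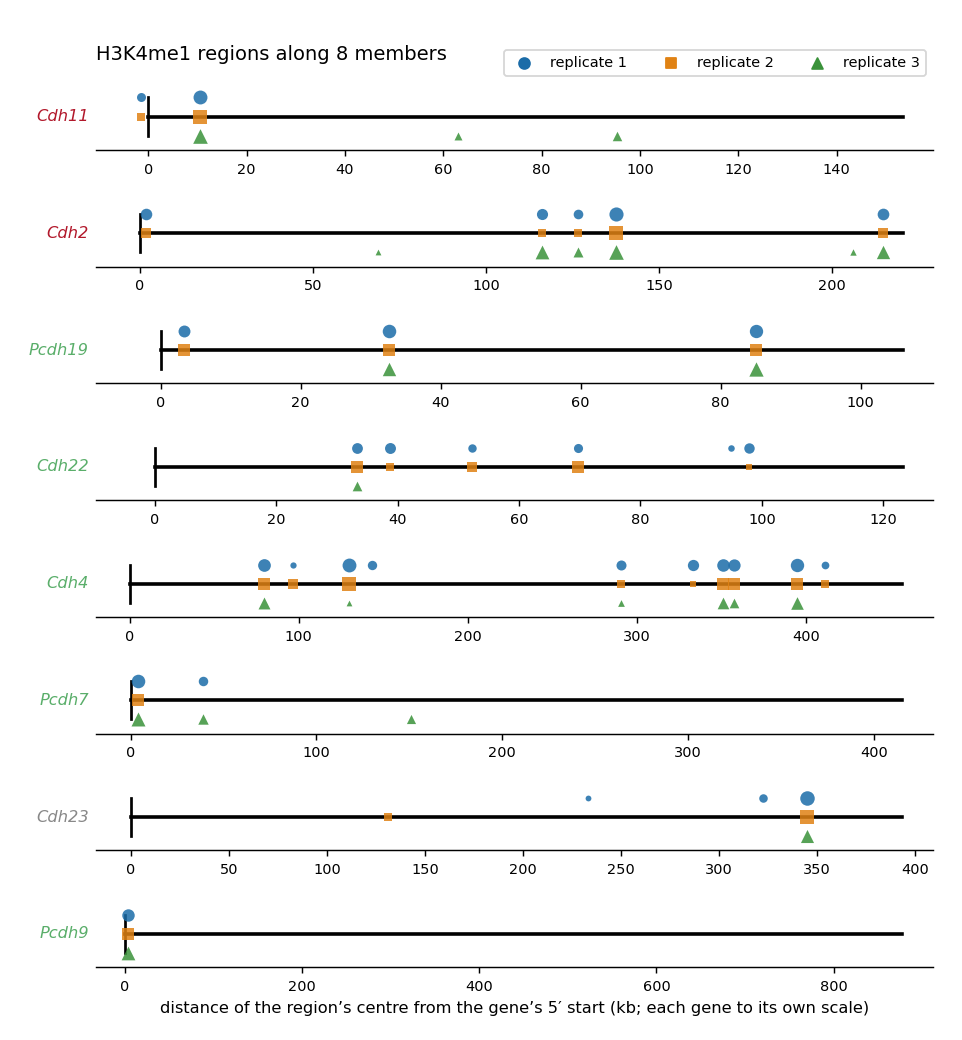
Regions with an H3K4me1 peak along 8 members (x axis, distance of the region's centre from the gene's 5′ start in kb, each gene to its own scale). The line is the gene, the tick its 5′ start, and symbols are replicates 1, 2 and 3 from top to bottom, larger with a higher percentile in the replicate's list. Cdh11 and Pcdh9 have their main signal near the 5′ end, Cdh4 and Cdh22 have regions along the body and none at the start.

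Among epithelial members the strongest peaks were of lower rank, and most regions were missing from replicate 3. P-cadherin (Cdh3), which lies directly upstream of Cdh1 on chromosome 8, had 1 peak in each replicate, over its start site, at percentile 49.7, 58.6 and 30.7, a mean of 46.3 ± 14.2. E-cadherin (Cdh1) had 2, 1 and 0 peaks. Its percentiles of 11.1 and 1.5 in replicates 1 and 2 were near the bottom of the lists, and its regions were intronic, centred 16.6 and 26.6 kb after the start, with none at the start site in any replicate. In replicate 3 the nearest peak to Cdh1 lay 62.6 kb away. Cdh26, an atypical cadherin of epithelia, had 2, 1 and 1 peaks at percentile 15.5, 23.4 and 60.0, from a region centred 24.4 kb after its start in replicate 1 and 4.0 kb after it in replicates 2 and 3. Pcdh1, a delta-1 protocadherin of airway and skin epithelium, was the strongest of this class where it was called, with peaks at its start and its end and percentiles of 83.3 and 83.1 in replicates 1 and 2. These peaks covered 26.6 and 37.4% of its window. Replicate 3 had 0 peaks over Pcdh1, the nearest being 8.4 kb away, and the 2 regions had GC contents of 58.0 and 57.7%. Cdh16 of kidney tubules and Cdh17 of intestine had 0 peaks in each replicate, with the nearest peaks 213.2 and 60.0 kb away in replicate 1. Of genes near them in length 73.0 and 67.5% had none in any replicate.

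Neural members fell into carriers and empty genes. Of 17, 6 had a peak in all 3 replicates, 2 in some and 9 in none. Among genes near in length 39.0% had a peak in all 3 and 43.0% had none in any, so such a split is common at these lengths. Pcdh19, an X-linked delta-2 protocadherin, led at percentile 76.8, 62.2 and 88.0, a mean of 75.7 ± 12.9, with 3, 3 and 2 peaks. Its intronic regions at 32.7 and 85.1 kb were called in all replicates, and the one near its start in replicates 1 and 2 only. Cdh4, the R-cadherin of retina and brain, had the most peaks of any member, 10, 9 and 6, in a gene of 456.9 kb where genes near in length carried a mean of 3.65. None lay at the start. The highest percentile was 81.7, 77.2 and 64.8, a mean of 74.6 ± 8.7. All 3 replicates shared 6 regions of Cdh4. Windows of 200 bases from these members are printed because the maxima of all replicates fell within 52 bp there, so that they mark the place of the signal most closely. Both are intronic, from the plus strand of GRCm38, and hold none of the 4 motifs, so no letter is in capitals.
Pcdh19 intron, chrX:133655931-133656130: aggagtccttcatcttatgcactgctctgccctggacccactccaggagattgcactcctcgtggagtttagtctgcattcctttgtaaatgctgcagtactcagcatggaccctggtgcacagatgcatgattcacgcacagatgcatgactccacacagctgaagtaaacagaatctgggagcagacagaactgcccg
Cdh4 intron, chr2:179800944-179801143: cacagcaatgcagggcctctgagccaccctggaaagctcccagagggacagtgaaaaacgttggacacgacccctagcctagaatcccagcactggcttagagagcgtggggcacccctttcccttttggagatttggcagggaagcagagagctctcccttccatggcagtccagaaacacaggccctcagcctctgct

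The Pcdh19 window lies about 33 kb after the start of the gene, with none of it repeat-masked and a GC content of 51.5%. The Cdh4 window lies 358.6 kb after the start, in partly repeat-masked sequence with a GC content of 58.0%. Cdh22, of pituitary and brain, resembled Cdh4 in having regions along its body and none at its start, with 6, 5 and 1 peaks and percentiles of 44.7, 58.7 and 31.2. The single region that replicate 3 kept had the lowest GC content of the 6, 49.2%. Pcdh7 and Pcdh9, both delta-1 protocadherins, showed the other layout, with a peak within 1 kb of a start in all 3 replicates. Pcdh7 stood at 77.3, 62.8 and 83.1, a mean of 74.4 ± 10.5, and Pcdh9 at 62.6, 58.3 and 79.3, a mean of 66.7 ± 11.1. For Pcdh9 this was the only peak in a gene of 877.3 kb, where genes near in length carried a mean of 4.17. Pcdh17, a delta-2 member, had 1 peak near its start at 73.1, 76.2 and 32.1, with replicate 3 far below the others. Pcdh10 had a start peak in replicates 1 and 2, at 63.9 and 60.8, and Pcdh8 in replicate 1, at 37.2.

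The 9 neural members with 0 peaks were Pcdh20 and 8 type II cadherins, namely Cdh7, Cdh8, Cdh9, Cdh10, Cdh12, Cdh18, Cdh19 and Cdh20. Cdh19 marks Schwann cell precursors, and the rest are known from subsets of neurons. The 8 were grouped after their values were seen, so what follows describes them. They range from 89.3 to 1140.3 kb, and of genes near in length 55.8 ± 3.7% had a peak (mean of replicates ± SD) and 34.8% had none in any. They are also poor in GC, at 34.3 to 39.4%, and of the 200 genes nearest in both length and GC content 22.7% had a peak. The same step reversed the reading of the whole neural class, whose share was 6.71 points lower than that of genes near in length and 14.6 points higher once GC content was matched too. Type II cadherins as a group, 13 genes, had a peak in 3, 3 and 3 cases, 23.1%, where 48.9% of genes near in length and 31.3% of those near in length and GC content did. The carriers were the neural Cdh22 and the non-neural Cdh11, Cdh24 and Cdh6. Neuron markers had few peaks as well, 2, 3 and 1 of 10, with the defining Tubb3 and Elavl3 at 0, Stmn2 with peaks in replicates 1 and 2, and Rbfox3 with peaks in all 3 at percentiles 90.6, 87.9 and 67.0. Of the glia markers 2, 2 and 0 of 6 had a peak. Their part in the empty genes was not tested.

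**Figure D4:**
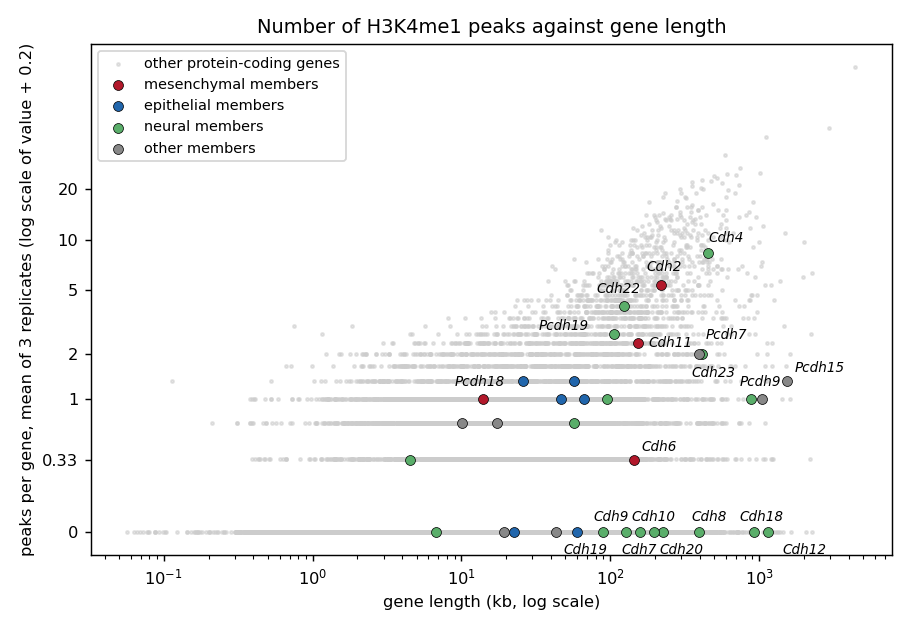
Peaks per gene, mean of 3 replicates (y axis, log scale of the value + 0.2), against gene length in kb (x axis, log scale). Grey points are other protein-coding genes and coloured points the 34 members by tissue class. Cdh4 has a mean of 8.33 peaks, and 8 neural type II cadherins between 89.3 and 1140.3 kb lie at 0.

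Several empty genes are neighbours in stretches with few or 0 peaks. Cdh9, Cdh10, Cdh12 and Cdh18 lie in a row on chromosome 15, from 16728756 to 23474418, a stretch of 6.75 Mb with 5 protein-coding genes. It held 0 peaks in each of the 3 lists, where the genome as a whole held 6.37, 4.92 and 5.31 peaks per Mb. Cdh10 lay 5370 kb from the nearest peak in replicate 1. Cdh20, Cdh7 and Cdh19 lie on chromosome 1 between 104768529 and 110977584, a stretch of 6.21 Mb with 23 protein-coding genes, which held 13, 7 and 14 peaks, or 2.09, 1.13 and 2.25 per Mb. Cdh19 was 4175.3, 4175.1 and 879.6 kb from the nearest peak. Of the 2489 protein-coding genes of at least 100 kb, 36.4% had no peak in any replicate, and of the 18 members of that length 7 had none.

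Members of the other class are known mainly from vessels, muscle and hearing. VE-cadherin (Cdh5), the junction protein of endothelium, had 0 peaks in each replicate, with the nearest 24.7, 22.5 and 30.8 kb away, and M-cadherin (Cdh15) of muscle had 0, with the nearest 21.5, 40.4 and 48.8 kb away. Of 6 endothelial markers Erg and Pecam1 had peaks in all 3 replicates, Kdr in 1, and Tie1, Tek and Emcn had 0. Of 6 muscle markers Myf5, Myf6, Myog and Pax7 had peaks in all 3, and Myod1 and Actc1 had 0. Myf5 and Myf6 had the same highest percentiles, 84.8, 78.4 and 85.3, so they appear to share their strongest peak. Pcdh12, of endothelium and placenta, had 1 peak in replicates 1 and 2, at 3.9 and 50.5. Cdh23 stood at 90.8, 87.0 and 71.0, a mean of 82.9 ± 10.5. That signal came from a region of 10.8 kb that also overlaps the body and the start of Vsir, a gene nested in an intron of Cdh23, and cannot be assigned to either. Its partner in the tip link, Pcdh15, had 1, 1 and 2 peaks in 1550.4 kb, at 38.0, 7.7 and 59.9, in an intron 1265.8 kb after the start. Cdh13, which has no cytoplasmic part, had 2, 1 and 0 peaks at 44.8 and 22.9 in a gene of 1041.2 kb. Cdh24 had 1 peak at its start in replicates 1 and 2, at 31.6 and 34.0, which also overlaps the start of Gm17606.

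Protein structure, which the tissue classes did not use, gave another grouping. All 8 delta protocadherins among the members had a peak in at least 1 replicate, and each had one within 1 kb of a start site in at least 1. This does not extend to Pcdh11x, a delta protocadherin of 620.4 kb kept out of the members by the letter in its symbol. It had 0 peaks in each replicate. Of genes near in length, 45.2% for delta-1 and 64.0% for delta-2 had no peak in any replicate. No background share was taken for a start peak in at least 1 replicate, and Pcdh8 had its start peak in replicate 1 only. In replicates 1, 2 and 3 the 3 delta-1 genes had a peak in 3, 3 and 2 cases and the 5 delta-2 genes in 5, 4 and 3, where 46.2 and 28.7% of genes near in length did. Type I cadherins had a peak in 4, 4 and 3 of 5 cases, Cdh15 being the empty one, where 38.9% of genes near in length did. The 3 atypical cadherins Cdh13, Cdh23 and Cdh26 had one in 3, 3 and 2 cases, where 49.4% of genes near in length did. The 7-repeat cadherins Cdh16 and Cdh17 had 0, where 22.8% of genes near in length had one. Of genes near in both length and GC content, 38.8% for delta-1, 9.8% for delta-2 and 53.0% for type I had a peak. For the atypical and 7-repeat groups these shares were 68.1 and 21.9%. These counts are descriptions of small groups whose values were seen, and no test was made.

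Start sites were examined apart from gene bodies. A peak within 1 kb of an annotated protein-coding start was present in 13, 10 and 6 of 34 members, where 12.5, 12.1 and 8.74% of all genes had one. In all 3 replicates this was so for Cdh2, Cdh3, Pcdh7 and Pcdh9 of the 34, where the background was 6.15%, and 20 members had none in any. These backgrounds are of all genes, whose median length is shorter. Among genes near in length the share with a start peak in all 3 replicates ran from 2.0% for Pcdh20 to 16.5% for Pcdh9. It was not taken for single replicates, so an excess of start peaks beyond gene length is not shown. RefSeq promoters of GRCm38.p6, 250 bases before to 50 after the start, were at hand for 18 members within 1 kb of the GENCODE start. CG dinucleotides, whose clusters mark most constitutive promoters, numbered a median of 18 in the 10 with a start peak in at least 1 replicate and 13 in the 8 without, where the median of 14226 promoters was 16. The ranges overlapped, at 4 to 30 and 4 to 38. The 250 bases upstream of 3 neural members, chosen after their values were seen, show this overlap. Pcdh9 had a start peak in all 3 replicates, Cdh8 had no peak anywhere, and Cdh22 had peaks only away from its start. Each is written 5′ to 3′ on the gene's strand, minus for all, with every CG in capitals.
Pcdh9 promoter, chr14:93890680-93890929: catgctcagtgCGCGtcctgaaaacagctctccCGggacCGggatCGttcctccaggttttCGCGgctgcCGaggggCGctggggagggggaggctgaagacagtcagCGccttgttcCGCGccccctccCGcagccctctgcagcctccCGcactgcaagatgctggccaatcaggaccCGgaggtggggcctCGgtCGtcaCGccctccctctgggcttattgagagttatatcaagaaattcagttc
Cdh8 promoter, chr8:99416472-99416721: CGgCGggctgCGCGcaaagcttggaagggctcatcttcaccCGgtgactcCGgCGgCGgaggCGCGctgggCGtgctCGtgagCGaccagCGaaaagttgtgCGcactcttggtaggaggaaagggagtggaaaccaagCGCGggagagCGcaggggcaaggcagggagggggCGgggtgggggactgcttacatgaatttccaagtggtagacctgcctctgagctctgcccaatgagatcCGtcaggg
Cdh22 promoter, chr2:165234738-165234987: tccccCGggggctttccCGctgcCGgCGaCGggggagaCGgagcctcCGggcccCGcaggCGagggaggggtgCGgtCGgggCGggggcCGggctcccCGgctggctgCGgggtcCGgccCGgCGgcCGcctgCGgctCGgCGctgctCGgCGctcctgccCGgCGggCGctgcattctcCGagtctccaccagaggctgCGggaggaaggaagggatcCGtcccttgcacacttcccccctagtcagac

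Over the 300 bases Pcdh9 has 18 CG, Cdh8 has 21 and Cdh22 has 38. A promoter rich in CG was thus found with and without the mark. CAGGTG was in 2 of the 18 member promoters and in 19.6% of all.

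Peaks over members merged into 57 regions. Of these 14 were within 1 kb of an annotated start, 39 in introns, 4 over an exon and 0 in the flanks. In all 3 replicates there were 21, or 36.8%, where the share was 46.3% of 19246 regions genome-wide. Regions called in replicates 1 and 2 but not 3 made up 17, or 29.8%, against 13.7% genome-wide. Their GC content ran from 50.1 to 58.1%, with a median of 53.0%. The 7 regions of replicate 3 alone, 12.3% against 12.9% genome-wide, ran from 38.1 to 47.9%, with a median of 43.3%. The same split was present genome-wide, with medians of 52.4% for replicates 1 and 2 and 41.5% for replicate 3 alone. It is thus not particular to the members. The mesenchymal class held 5 of those 7 regions, and 11 of its 13 regions had a peak in replicate 3, against 14 of 26 neural, 2 of 8 epithelial and 3 of 10 other regions. Median GC content was 42.4% for mesenchymal regions and between 50.8 and 51.4% for each of the remaining classes. The classes that lost members in replicate 3 are those with regions richer in GC, and the part of base composition in the class differences was not tested.

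**Figure D5:**
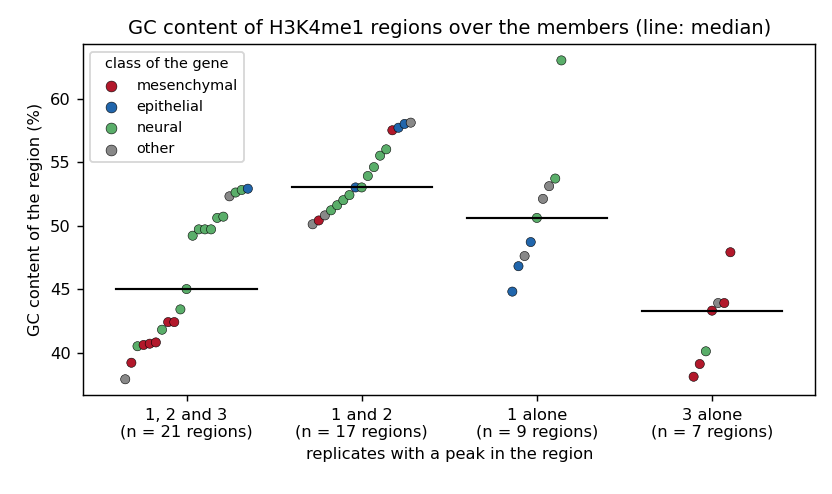
GC content in percent (y axis) of regions over members, by the replicates that have a peak there (x axis), with 1 point per region coloured by tissue class and a line at the median. Regions of replicates 1 and 2 lie between 50.1 and 58.1% and those of replicate 3 alone between 38.1 and 47.9%, where the genome-wide medians of these sets are 52.4 and 41.5%.

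Genes of the proteins that work with cadherins were read in the same way. Of 15 catenins, nectins and linked adaptors, 13, 11 and 10 had a peak, a mean of 75.6 ± 10.2% (SD, n = 3), where 38.7% of genes near in length did, and 9 had one in all 3 replicates. Ctnnd1, encoding p120-catenin, which keeps classical cadherins at the membrane, stood at percentile 91.9, 88.3 and 95.7. Ctnnb1, encoding beta-catenin, which links cadherins to actin and carries Wnt signals, stood at 71.4, 51.3 and 74.0. Nectin1 stood at 94.9, 96.7 and 63.6. Ctnnd2, the neural relative of Ctnnd1, and Vcl had 0 peaks. Of 22 other genes of the cadherin superfamily, 9, 8 and 9 had a peak, a mean of 39.4 ± 2.6%, where 32.6% of genes near in length did. The giant cadherins of planar polarity varied. Fat1 stood at 94.0, 89.6 and 97.3, Fat4 at 91.7, 85.4 and 82.4 and Dchs1, a ligand of Fat4, at 89.9, 95.0 and 85.3. Fat3 was low, at 3.2, 33.2 and 24.7, Dchs2 stood at 29.3 and 45.1 with 0 peaks in replicate 3, and Fat2 and Celsr3 had 0 peaks. All 5 desmosomal cadherins listed, Dsg2, Dsg3, Dsc1, Dsc2 and Dsc3, had 0 peaks, where 71.2% of all protein-coding genes had none in any replicate. Of the genes nearest in length to Cdh3, which at 46.4 kb is as long as Dsg2, 72.0% had none.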

How the data were processed

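H3K4me1 CUT&Tag peak lists of 3 whisker pads were analysed. The authors sequenced 51 bp read pairs and called peaks per replicate with SEACR 1.3, stringent, without IgG, keeping the top 1% of signal blocks. The submitters' processing notes also name Bowtie2 2.3, SAMtools 0.1.19, bedtools and mm10. The deposited total signal is the summed pileup over a peak and the maximum signal its highest pileup, both not scaled to depth. The study names the same nominal sequencing depth for every library, and the depth reached was not measured here.

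Peaks were intersected with GENCODE vM21 genes and 5 kb flanks (minimum overlap 1 bp) with Python 3.11.15, numpy 2.4.6 and pandas 2.3.3, and overlap counting was tested on simulated peaks. Percentiles of total signal are within a list. Regions are peaks of the 3 lists merged where they overlap. Genes near in length are the 200 protein-coding genes closest in length to each member, members excluded. Their shares were set beside those of the members, and some of these differences were tested over replicates. The 1 test used was a two-sided exact sign-flip permutation over 3 replicate differences, which cannot go below 0.25. Whether replicates came from separate embryos is not stated in the labels beyond their pad numbers, so the SD may be partly technical.

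Members, classes and lists were chosen with earlier results of these data known. Values in every replicate were given for members with a peak in all 3 replicates and for Cdh1, Cdh3, Cdh2, Cdh11, Cdh5, Cdh15, Cdh16 and Cdh19. Sequence windows were taken for the members with the highest mean percentile outside chromosome 18. Cdh23 was passed over because its maxima lay more than 2 kb apart. Of 34 members, 18 matched a RefSeq promoter. Alternatives covered stronger peaks, other flanks and overlaps, other signal ranks, other class assignments, other comparison genes and leaving out each replicate.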

Additional observations from a re-analysis of the deposited data

How the results depend on the processing

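Of 74 alternative values for 10 results, 63 stayed within the replicate spread or kept their direction, 10 moved further and 1 reversed. With the stronger 50% of each list the mean share of members with a peak was 33.3%, 7 members had a peak in all replicates, peaks per member were 0.549 (1.16 with all peaks), the median highest percentile was 73.9 (63.3) and the covered share 0.978%. With the strongest 10000 peaks, peaks per member were 0.765, the percentile 69.6 and the covered share 1.23%. Fewer peaks enter by construction. Ranked by maximum signal the percentile was 49.2, and ranked by signal per base of the peak 46.9. The neural share minus that of comparison genes went from -6.71 to 14.6 points when GC content was matched too, an alternative chosen after seeing the data. Counting Cdh2 as neural left the mesenchymal minus neural difference at 33.3 points, and leaving out Cdh6 and Pcdh18 at 58.8. For the mesenchymal minus epithelial difference the same settings gave 22.2 ± 38.5 and 44.4 ± 19.2 points.

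Leaving out each replicate gave 48.5 to 57.4% of members with a peak, 13 to 19 in all remaining lists, 1.03 to 1.29 peaks per member, percentiles of 61.0 to 65.6, covered shares of 1.51 to 1.72% and 23.5 to 33.8% with a start peak. The mesenchymal minus neural difference ran from 30.9 to 49.3 points and the mesenchymal minus epithelial one from 8.33, without replicate 3, to 37.5. Causes were not tested.

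No paired analysis was possible because IgG libraries, the only ones with matching replicate numbers, were not analysed here. With 3 replicates and no read numbers, weak or missing peaks cannot be separated from low depth.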
